A study of Mus musculus with 27 samples.

Results

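The 7 fasting and fuel switch genes Pdk4, Pdk2, Ucp3, Ucp2, Angptl4, Txnip and Gys2 were followed by RNA-seq through injury and repair of mouse skeletal muscle. They were chosen by gene name, with earlier results of these data known. Each of the 7 names matched a single entry among the 55852 entries of the table of injured muscle and the 55677 entries of the table with control muscle. Of these, 6 passed the filter on low values in both tables (at least 1 TPM in at least 3 libraries), and Gys2 did not. TPM is a share of all transcripts that is corrected for gene length, so that levels can be set side by side between genes.

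The 24 injured libraries came from gastrocnemius muscle of male mice injected with cardiotoxin (CTX), a snake venom peptide that lyses myofibres and is followed by regeneration. C57BL/6J WT mice and their littermates labelled Gsdme KO, in which the gasdermin E gene was targeted in the whole body, were sampled on D1, D4, D7 and D14 after CTX, 3 libraries to each group. A further 3 libraries were of WT control muscle without CTX, which the study's methods name as the contralateral muscle and the deposited description as unloaded muscle. No age was given, and no group was described as fasted. The titles say KO and the genotype field says knockdown, and Gsdme transcripts were still listed in all libraries labelled KO. Gsdme was 1.28 to 2.17 TPM against 2.76 to 4.85 TPM in WT on D1, 1 to 1.64 against 2.63 to 3.02 TPM on D4, 0.95 to 1.37 against 1.8 to 2.51 TPM on D7, and 1.27 to 1.96 against 1.46 to 2.26 TPM on D14. The genotypes did not overlap in Gsdme on D1, D4 and D7, and on D14 they did.

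In fasting, skeletal muscle saves glucose and burns fatty acids. Pyruvate dehydrogenase kinases switch off the pyruvate dehydrogenase complex, the gate through which pyruvate enters the citric acid cycle, and Pdk4 and Pdk2 are the kinases most used by muscle fibres. PPAR nuclear receptors, which sense fatty acids, and FoxO factors are well known activators of Pdk4, Ucp3 and Angptl4 in fasted muscle.

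Between 11785 and 14704 genes reached 1 TPM in a library, and the depth in reads is unknown. The 10 mature myofibre markers (Ckm, Acta1 and others) summed to between 45156 and 216178 TPM, so that the muscle label held in every library. KO D4 replicate 2 stood apart from the other KO D4 libraries, with 466 TPM of 8 macrophage and leukocyte markers (Ptprc, Cd68, Csf1r and others) against 3739 and 3118 TPM. Brown adipocyte markers summed to at most 3.71 TPM and hepatocyte markers to at most 19.1 TPM in any library. In bulk muscle, fewer cells of a type and less RNA per cell cannot be told apart.

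Promoters are shown for Pdk4 and Ucp3, one of the pairs of members that moved together within groups, for Ucp2 as the neighbour of Ucp3 on the same strand, and for Txnip, whose genotypes separated on D7 and D14. Each is the 250 bases before the RefSeq start (GRCm38.p6), 5′ to 3′ on the gene's strand. RefSeq windows were matched for 5 of the 7 genes, Angptl4 and Gys2 not among them. Capitals mark every match, on either strand, to AGGTCA (the core bound by nuclear receptors such as PPARs), GTAAACA (the FoxO core), CACGTG (the E-box), CCAAT (the CCAAT box) or GGGCGG (the GC box).
Pdk4, chr6:5496279-5496528, minus strand: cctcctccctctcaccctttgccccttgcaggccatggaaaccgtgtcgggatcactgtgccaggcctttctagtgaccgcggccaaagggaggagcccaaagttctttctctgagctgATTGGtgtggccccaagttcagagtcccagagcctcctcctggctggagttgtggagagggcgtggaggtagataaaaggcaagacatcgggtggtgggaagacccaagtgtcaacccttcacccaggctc
Ucp3, chr7:100472741-100472990, plus strand: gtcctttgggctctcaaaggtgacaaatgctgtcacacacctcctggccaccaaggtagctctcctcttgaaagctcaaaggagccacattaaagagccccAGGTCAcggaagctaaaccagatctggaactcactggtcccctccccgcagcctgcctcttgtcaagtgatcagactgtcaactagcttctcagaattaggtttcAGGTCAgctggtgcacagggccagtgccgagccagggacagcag
Ucp2, chr7:100493108-100493357, plus strand: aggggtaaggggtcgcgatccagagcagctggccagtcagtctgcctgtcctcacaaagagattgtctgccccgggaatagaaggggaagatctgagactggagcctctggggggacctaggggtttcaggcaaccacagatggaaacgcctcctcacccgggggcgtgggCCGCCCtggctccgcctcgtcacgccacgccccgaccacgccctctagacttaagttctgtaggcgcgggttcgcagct
Txnip, chr3:96557707-96557956, plus strand: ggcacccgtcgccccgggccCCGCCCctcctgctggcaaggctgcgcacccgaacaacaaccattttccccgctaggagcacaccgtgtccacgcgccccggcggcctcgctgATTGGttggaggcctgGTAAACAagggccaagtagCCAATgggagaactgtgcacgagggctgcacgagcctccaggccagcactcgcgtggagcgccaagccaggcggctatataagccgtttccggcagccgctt
Ucp3 held AGGTCA at 149 and 44 bases before the start, a motif found in 14.0% of 32851 windows of this length. Pdk4 held a CCAAT box on the reverse strand at 131 bases, and 33.9% of windows held one. Ucp2 held a GC box on the reverse strand at 79 bases, as 32.7% of windows did in either orientation. Txnip held the FoxO core at 121 bases, found in 3.17% of windows, between CCAAT boxes at 137 and 102 bases, and a GC box at 230 bases. No match in these windows overlapped another. For Pdk2, not printed, the window at chr11:95041372-95041621 held the E-box at 126 bases, as 6.02% of windows did, and CCAAT boxes on the reverse strand at 105, 73 and 42 bases. The other Pdk2 window, at chr11:95040876-95041125, held none of these motifs. A match describes letters only, and binding was not measured.

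The first comparison asked how injury changed these genes within a day, with WT D1 set against control muscle in the table that holds both. Pdk4, Ucp3 and Pdk2 fell, and Ucp2 and Angptl4 rose: of 6 tested members, 2 were called higher and 3 lower by limma at an adjusted p under 0.05. Over all 13041 tested genes 55.4% were called higher and 5.64% lower, with a median of 0.66 on the log2 scale, so that 3 members fell while most genes lay higher. This balance rested on the scaling, with 23.1% called higher and 19.4% lower by median of ratios and 20.0% and 20.6% with quantile normalization, and the calls of Pdk4, Ucp3, Pdk2 and Ucp2 held in direction under both. The study describes 2 sequencing batches, the first of injured beside contralateral muscle and the second of the WT and KO time course. Each would include injured WT muscle on D1, and which of them supplied these libraries is not stated. If it was the second, injury and batch may coincide here. If it was the first, batch may instead coincide with genotype on D1 and with the WT step from D1 to D4. Pdk4 (chr6:5483351-5496309, minus strand) was the most abundant member in control muscle, with 539, 371 and 444 TPM in control and 157, 130 and 84.5 TPM on D1. All D1 libraries lay below all controls, and the log2 difference was -1.88 (SE 0.25, adjusted p = 0.00162, limma).

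Ucp3, a mitochondrial carrier of muscle fibres that rises when fatty acids are burnt (chr7:100472990-100486432, plus strand), was 142, 112 and 109 TPM in control and 48.7, 34.4 and 60.1 TPM on D1, a log2 difference of -1.35 (SE 0.23, limma adjusted p = 0.00267). Pdk2, the most widely expressed of the kinases (chr11:95026258-95041354, minus strand), was 306, 228 and 268 TPM in control and 120, 71.1 and 161 TPM on D1, a log2 difference of -1.25 (SE 0.29, limma adjusted p = 0.0073). Neither gene's D1 libraries reached the lowest control. The mature myofibre markers were also lower, at 88050 to 180224 TPM on D1 against 175192 to 190828 TPM in control, and their part in these falls was not tested.

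Ucp2, the uncoupling protein of leukocytes and many other tissues (chr7:100493337-100502020, plus strand), starts 6904 bases beyond the end of Ucp3 and went the other way. It was 26.3, 26.8 and 30.1 TPM in control and 212, 390 and 79.4 TPM on D1, with the lowest D1 library above the highest control. Its mean rose to 8.17 times that of control, a log2 difference of 2.71 (SE 0.48, limma adjusted p = 0.0031). Macrophage and leukocyte markers were at 168 to 220 TPM in control and 798 to 3392 TPM on D1, and their part in the rise was not tested.

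Angptl4, a secreted inhibitor of lipoprotein lipase (chr17:33773750-33781830, minus strand), was 13.5, 12.4 and 7.65 TPM in control and 42.4, 59.2 and 15.1 TPM on D1. The groups did not overlap, though D1 replicate 3 lay close to control, and the log2 difference was 1.55 (SE 0.45, limma adjusted p = 0.0182). This call did not hold with values rescaled by median of ratios, which brought the median of all genes to 0.06 (0.86, limma adjusted p = 0.138), nor with quantile normalization (0.85, adjusted p = 0.149), without the most abundant genes (1.11, adjusted p = 0.0637), with no filter (adjusted p = 0.0703), or without D1 replicate 1 (adjusted p = 0.0609), control replicate 2 (adjusted p = 0.0506) or control replicate 3 (adjusted p = 0.0591).

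Txnip, an arrestin-like protein that binds thioredoxin and lowers glucose uptake (chr3:96557957-96561883, plus strand), was 385, 332 and 266 TPM in control and 204, 239 and 301 TPM on D1. These overlapped, with a log2 difference of -0.40 (SE 0.21, limma adjusted p = 0.125). It was called lower with median of ratios (-1.13, adjusted p = 0.0137), quantile normalization (-0.78, adjusted p = 0.0396), without the most abundant genes (-0.90, adjusted p = 0.0233), with library quality weights (-0.66, adjusted p = 0.000164) and without D1 replicate 3 (-0.55, adjusted p = 0.0215), all by limma. Gys2, the liver glycogen synthase (chr6:142422613-142473109, minus strand), was listed at 0.01, 0.11 and 0.06 TPM in control and at 0 in all D1 libraries, and was not tested.

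**Figure D1:**
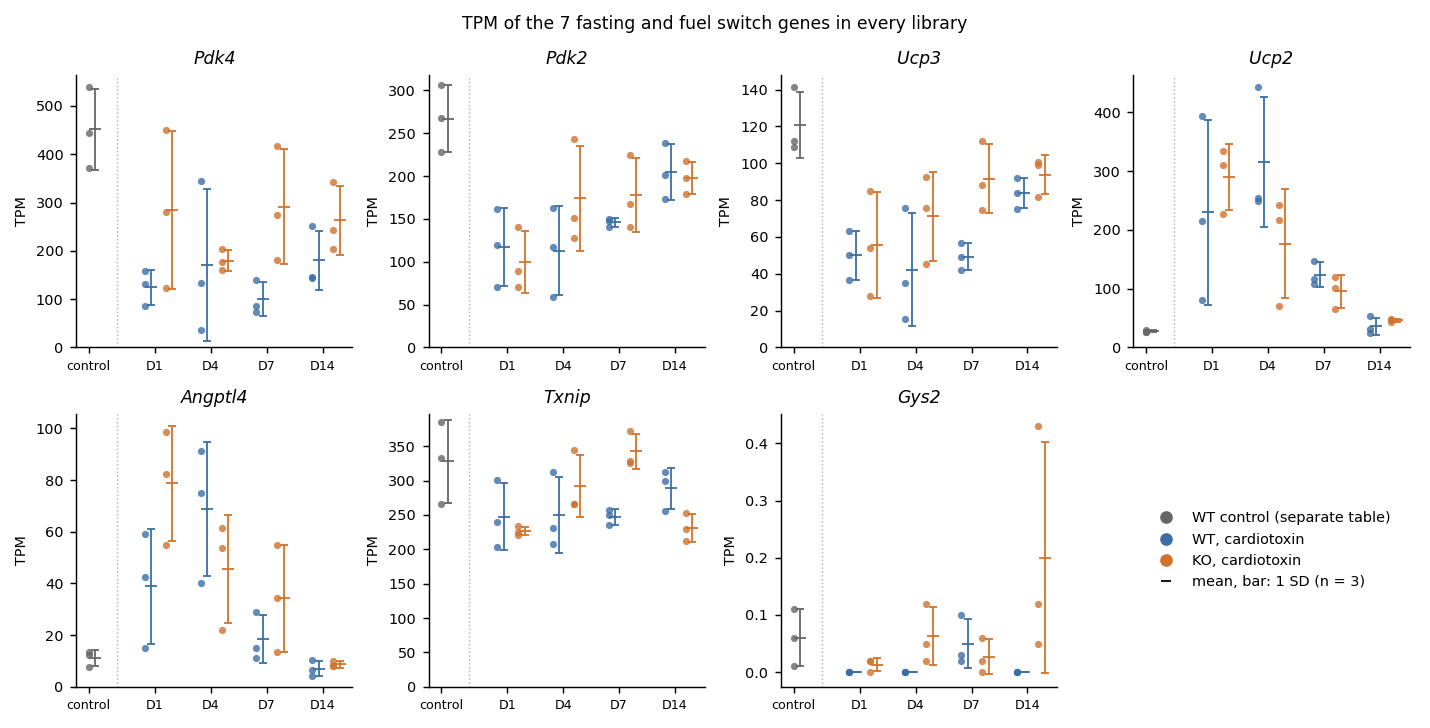
TPM of each gene (vertical axes, from 0 except for Gys2) in control muscle and on D1, D4, D7 and D14, with a point per library, the mean and 1 SD (n = 3), control in gray from a separately made table, WT in blue and KO in orange. Pdk4, Pdk2 and Ucp3 sit highest in control, Ucp2 and Angptl4 peak on D1 or D4, Txnip stays between 203 and 385 TPM, and Gys2 does not pass 0.43 TPM.

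Next, the course of each gene over repair was read in the injured table, with neighbouring days compared within each genotype. Ucp2 and Angptl4 were the members with a called step, both in WT and both downward. The other members had no called step in either genotype.

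Ucp2 was 215, 394 and 81 TPM in WT on D1, 443, 249 and 255 TPM on D4, 148, 116 and 107 TPM on D7, and 30.6, 52.9 and 24.9 TPM on D14. In KO it was 334, 227 and 311 TPM on D1, 242, 70.1 and 217 TPM on D4, 120, 64.9 and 101 TPM on D7, and 48.3, 43.5 and 46.5 TPM on D14. Group means ranged 8.74 times, from WT D4 down to WT D14, and in the order of the 8 groups the only neighbours without overlap were KO D7 and KO D14. WT D14 overlapped the control libraries of the other table, and KO D14 lay above them.

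From D7 to D14 Ucp2 fell by 1.81 on the log2 scale in WT (SE 0.47, limma adjusted p = 0.013), beside 30.9% of all tested genes called lower and 0.923% called higher (10.3% and 4.45% by median of ratios). The call was lost without WT D14 replicate 3 (adjusted p = 0.0771, limma) or without WT D7 replicate 1 (adjusted p = 0.0663, limma). In KO the same step was -0.99 (SE 0.47, limma adjusted p = 0.26), beside 0.477% of genes called lower and 0.0827% higher (1.90% and 0.770% by median of ratios). Whether the step differed between genotypes was not tested. Leukocyte markers moved with this step in WT, from 1377 to 1838 TPM on D7 to 175 to 588 TPM on D14. Per 1000 TPM of these markers Ucp2 in WT was 78.0 to 84.3 on D7 and 89.9 to 142.5 on D14, so that it did not fall on that scale. From D4 to D7 Ucp2 differed by -1.30 in WT (limma adjusted p = 0.0723) and by -0.74 in KO (limma adjusted p = 0.624).

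Angptl4 was 42.3, 59.1 and 15.1 TPM in WT on D1, 91.2, 40.2 and 74.9 TPM on D4, 28.9, 14.9 and 11.3 TPM on D7, and 6.38, 10.2 and 4.35 TPM on D14. In KO it was 98.8, 82.3 and 55 TPM on D1, 53.6, 21.9 and 61.4 TPM on D4, 54.8, 13.4 and 34.4 TPM on D7, and 8.06, 7.85 and 10.1 TPM on D14. The highest group mean was KO D1 and the lowest WT D14, 11.2 times apart, and WT D7 and KO D14 were the only neighbours in the order whose libraries did not overlap. On D14 both genotypes overlapped the control libraries.

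From D4 to D7 Angptl4 fell by 1.88 on the log2 scale in WT (SE 0.53, limma adjusted p = 0.0297), beside 9.31% of genes called lower and 3.04% called higher (5.42% and 6.18% by median of ratios). With no filter, and so more genes tested, it was not called (adjusted p = 0.057, limma), and leaving out WT D4 replicate 1 or 3, or WT D7 replicate 2 or 3, gave adjusted p from 0.0612 to 0.143. From D7 to D14 the difference was -1.24 in WT (SE 0.53, limma adjusted p = 0.0745) and -1.67 in KO (SE 0.53, limma adjusted p = 0.133). The KO step was called without KO D7 replicate 2 (-2.21, limma adjusted p = 0.0376).

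None of the 6 members was called from D4 to D7 in KO, where 0% of genes were called higher and 0% lower. No member was called from D1 to D4 either, beside 14.6% of genes called higher and 5.27% lower in WT (13.1% and 10.6% by median of ratios), and 7.18% higher and 12.2% lower in KO (12.5% and 13.5% by median of ratios). At an unadjusted p under 0.05 in the limma fit there were 0 members from D1 to D4 in WT, 2 in KO (Pdk2 and Txnip), 0 from D4 to D7 in KO and 2 from D7 to D14 in KO (Angptl4 and Txnip). Of all 15718 tested genes, 5117, 5728, 1555 and 3035 were under it in the same order.

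Pdk4 varied most among libraries of a group, with a within-group SD of 0.76 on the log2 scale, and only 42.5% of its variance lay between groups, against 81.2% for Ucp2 and 80.1% for Angptl4. In WT it was 157, 132 and 85.9 TPM on D1, 35.9, 133 and 344 TPM on D4, 140, 85.8 and 74.2 TPM on D7, and 251, 145 and 145 TPM on D14. In KO it was 281, 451 and 124 TPM on D1, 161, 203 and 176 TPM on D4, 418, 182 and 275 TPM on D7, and 244, 343 and 203 TPM on D14. Every neighbouring pair in the order of the 8 groups overlapped, and on D14 all libraries of both genotypes were still below the lowest control, at 371 TPM.

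Ucp3 was 50, 36.8 and 63.5 TPM in WT on D1, 15.7, 35.1 and 75.8 TPM on D4, 56.6, 49.3 and 42.1 TPM on D7, and 75.3, 84 and 91.8 TPM on D14. In KO it was 53.8, 85.1 and 27.8 TPM on D1, 45.1, 75.5 and 92.8 TPM on D4, 112, 74.7 and 88.4 TPM on D7, and 99.1, 101 and 81.7 TPM on D14. Neighbouring groups overlapped throughout, and both D14 groups lay below all controls. Ucp3 exceeded Ucp2 in 3 of 3 control libraries, at a median of 4.17 times, in 0 of 6 libraries on D1 and in 6 of 6 on D14, where the group medians were 2.46 times in WT and 2.05 times in KO.

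Pdk2 was 120, 71 and 161 TPM in WT on D1, 59.1, 117 and 163 TPM on D4, 140, 150 and 148 TPM on D7, and 238, 173 and 202 TPM on D14. In KO it was 89.3, 140 and 70 TPM on D1, 128, 243 and 151 TPM on D4, 167, 225 and 141 TPM on D7, and 179, 198 and 217 TPM on D14. Neighbouring groups overlapped throughout, and WT D14 reached into the control range while KO D14 stayed below it. The KO step from D1 to D4 was 0.80 (SE 0.34, limma adjusted p = 0.0985), and it was called without KO D1 replicate 2 (1.07, limma adjusted p = 0.046).

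Txnip had the smallest spread within groups, an SD of 0.19 on the log2 scale. In WT it was 203, 239 and 301 TPM on D1, 208, 230 and 312 TPM on D4, 235, 250 and 258 TPM on D7, and 256, 312 and 299 TPM on D14. In KO it was 225, 233 and 221 TPM on D1, 266, 345 and 266 TPM on D4, 372, 326 and 329 TPM on D7, and 252, 212 and 229 TPM on D14. The highest and lowest group means, KO D7 and KO D1, were 1.51 times apart and neighbours in the order overlapped. From D7 to D14 Txnip differed by -0.57 in KO (SE 0.16, limma adjusted p = 0.103), with every D14 library below every D7 library.

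Gys2 was listed at 0 in 9 of 12 WT and 2 of 12 KO injured libraries. The highest values were 0.1 TPM in WT, on D7, and 0.43 TPM in KO, on D14. Its genotypes separated on D14, where WT was at 0 in all libraries and KO at 0.05, 0.43 and 0.12 TPM, and on D4, where WT was at 0 and KO at 0.05, 0.12 and 0.02 TPM. At these levels an exact 0 may be a failed estimate, so no fold was formed. The muscle glycogen synthase Gys1, for comparison, was at 95.7 ± 30.3 TPM (SD, n = 3) in KO on D1.

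The main comparison of the series, KO against WT on the same day, addresses what loss of Gsdme changes during repair. No tested member was called on any day, or on the average over days, by limma. Across all 15718 tested genes 0.00636% were called on D1, 0% on D4, 0% on D7, 0% on D14 and 0.00636% on average, which is at most 1 gene in a comparison. At an unadjusted p under 0.05 the members were 1 on D1 (Angptl4), 1 on D4 (Ucp3), 2 on D7 (Pdk4 and Txnip), 0 on D14 and 2 on average (Pdk4 and Ucp3). Of all 15718 tested genes, 845, 3568, 481 and 324 were under it by day and 556 on average. Pdk4, Ucp3 and Angptl4 (on D7) and Gys2 (on D4 and D14) stand in the study's own list of genes that differ by genotype. That list was made from these libraries, so their direction is not independent evidence. The main limma fit here called none of Pdk4, Ucp3 and Angptl4 on D7 and did not test Gys2. Why the list and this fit differ was not tested. Which sequencing batch the WT D1 libraries came from is not stated, and genotype and batch may coincide on D1.

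Pdk4 had a higher mean in KO on 4 of 4 days, though on D4 the means were only 1.05 times apart (180 and 171 TPM) and the log2 difference turned to -0.26 without WT D4 replicate 1. Over all days it ran from 35.9 to 344 TPM in WT, with a median of 137 TPM, and from 124 to 451 TPM in KO, with a median of 223 TPM (n = 12 each). The average log2 difference was 0.92 (SE 0.29, 95% interval 0.32 to 1.53), with p = 0.00455 and an adjusted p of 0.861 over all genes by limma, and an exact two-sided permutation of genotype within days gave p = 0.00554 over 160000 assignments. By day the log2 differences were 1.04 on D1 (SE 0.58), 0.59 on D4, 1.51 on D7 and 0.56 on D14, with limma adjusted p of 0.873, 0.478, 0.776 and 1. Only on D7 did the genotypes not overlap.

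Ucp3 was likewise higher in KO by mean on 4 of 4 days, with medians of 53.3 TPM in WT and 83.4 TPM in KO, but on D1 the sign turned with median of ratios (-0.052), quantile normalization (-0.034), the most abundant genes removed (-0.022) and without any of 3 single libraries (down to -0.33, without KO D1 replicate 2). Its average log2 difference was 0.51 (SE 0.21, 95% interval 0.07 to 0.94), at a limma adjusted p of 0.861 and an exact permutation p = 0.035. By day the differences were 0.04, 0.95, 0.87 and 0.16 from D1 to D14, none called (limma adjusted p from 0.212 to 1). Gys2 gave an exact permutation p = 0.0245 on values at or near 0.

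The remaining members gave averages of 0.41 for Angptl4 (95% interval -0.15 to 0.96, exact permutation p = 0.197), 0.17 for Pdk2 (-0.18 to 0.52, exact permutation p = 0.377), -0.09 for Ucp2 (-0.59 to 0.40, exact permutation p = 0.741) and 0.07 for Txnip (-0.10 to 0.24, exact permutation p = 0.49). In all, 7 such permutations were run, on members chosen with earlier results of these data known.

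**Figure D2:**
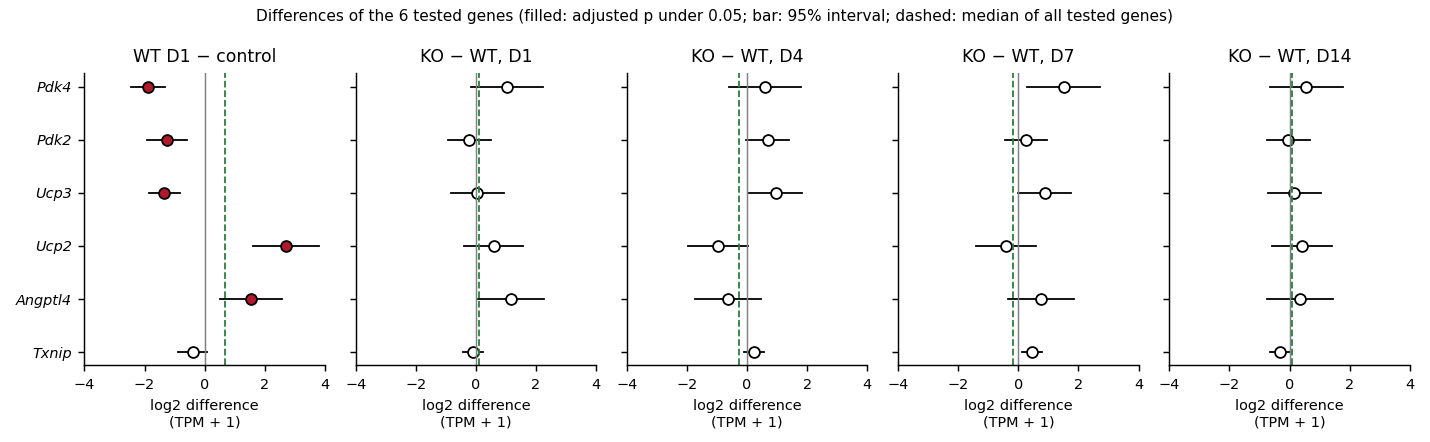
Differences in log2(TPM + 1) of the 6 tested genes (horizontal axes) for WT D1 minus control and for KO minus WT on each day, with 95% intervals from limma, filled points where the adjusted p was under 0.05 and the median of all tested genes as a dashed green line. Of the members, 5 are filled in the first panel and 0 in the KO panels, where the largest difference is Pdk4 on D7 at 1.51.

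On D7 the genotypes separated in 3 of the 6 tested members. Every KO library exceeded every WT library in Pdk4 (182 to 418 against 74.2 to 140 TPM), Ucp3 (74.7 to 112 against 42.1 to 56.6 TPM) and Txnip (326 to 372 against 235 to 258 TPM). Over all tested genes 1.85% separated with KO above and 14.6% with KO below, and the median of all genes was -0.19. The same 3 members separated with median of ratios, with quantile normalization and without the most abundant genes. The share of all genes that separated was not counted under these scalings. With 3 against 3, the exact permutation test cannot go below p = 0.1, the value each of these reached. The log2 differences were 0.87 for Ucp3 (SE 0.42) and 0.47 for Txnip (SE 0.16), with a limma adjusted p of 0.776 for both.

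When limma weighted libraries by their estimated quality, 4 members were called higher in KO on D7, namely Pdk4 (1.71, adjusted p = 0.00207), Txnip (0.42, adjusted p = 0.00525), Ucp3 (0.91, adjusted p = 0.0129) and Angptl4 (1.20, adjusted p = 0.0165). These weights called 3.39% of all genes on D7, 1.16% higher and 2.23% lower, and their estimation stopped before reaching its tolerance. Without weights Angptl4 was 13.4 to 54.8 TPM in KO and 11.3 to 28.9 TPM in WT on D7, which overlap.

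The myofibre content of the D7 libraries also separated the genotypes. The summed mature myofibre markers were 138763 to 216178 TPM in KO and 117536 to 132683 TPM in WT. Leukocyte markers went the other way, at 478 to 1267 TPM in KO against 1377 to 1838 TPM in WT. Per 1000 TPM of myofibre markers, Pdk4 was 0.841 to 3.01 in KO and 0.611 to 1.2 in WT, Ucp3 was 0.345 to 0.807 and 0.347 to 0.482, and Txnip was 1.51 to 2.68 and 1.89 to 2.12. On this scale, which was formed after the values were seen, none of the 3 separated the genotypes, while Ucp2 did (0.3 to 0.867 in KO and 0.878 to 1.26 in WT). Per 1000 TPM of leukocyte markers, all 3 separated with KO above, at 229.8 to 380 against 53.9 to 76.4 for Pdk4, 73.9 to 156 against 30.6 to 35.7 for Ucp3 and 275 to 682 against 128 to 187 for Txnip, and so did Pdk2 and Angptl4. Both divisors themselves separated the genotypes on D7. Dividing by leukocyte markers therefore raises KO values relative to WT, and dividing by myofibre markers lowers them. No share over all genes was counted on either scale. The part of either cell type in the D7 differences was not tested. The lowest KO value per myofibre marker was for each of Pdk4, Ucp3 and Txnip that of KO D7 replicate 2, the library with the most myofibre marker TPM.

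**Figure D3:**
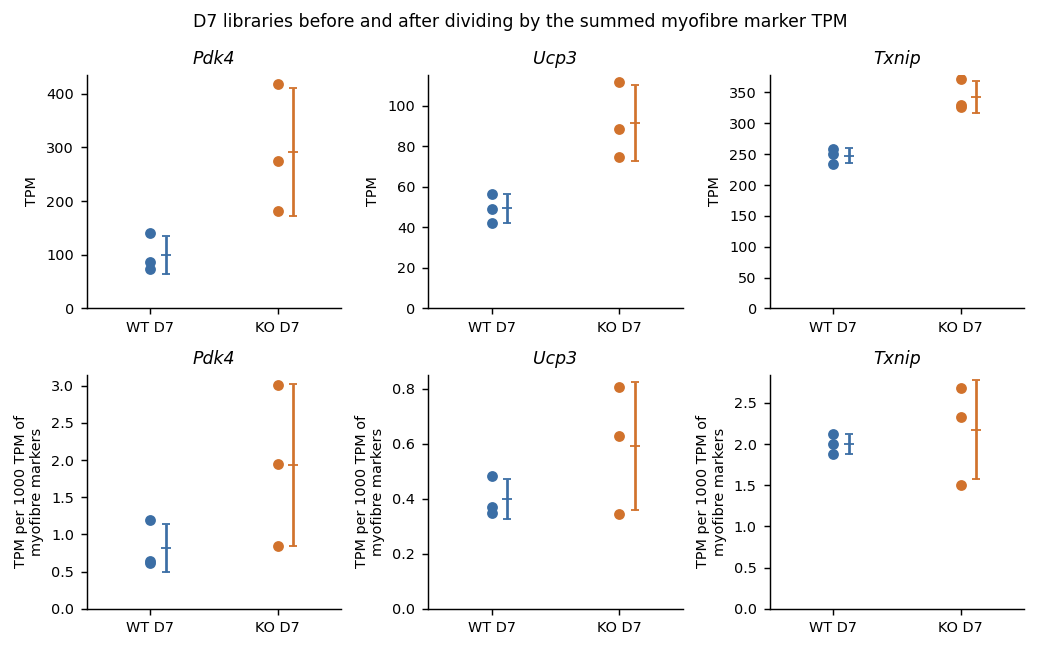
Levels of Pdk4, Ucp3 and Txnip in the 3 WT and 3 KO libraries of D7, as TPM (upper panels) and per 1000 TPM of summed myofibre markers (lower panels), with a point per library, the mean and 1 SD. The groups are apart in the upper panels (Txnip 235 to 258 against 326 to 372 TPM) and overlap in the lower panels (1.89 to 2.12 against 1.51 to 2.68).

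On D1, Angptl4 was the member with an unadjusted p under 0.05, at 98.8, 82.3 and 55 TPM in KO against 42.3, 59.1 and 15.1 TPM in WT. These overlapped, with 8 of 9 pairs higher in KO and a log2 difference of 1.16 (SE 0.53, 95% interval 0.06 to 2.26, limma adjusted p = 0.873). Without the most abundant genes they did not overlap, and the share of all genes that separated was not counted there. Ucp2 differed by 0.59 (SE 0.47, limma adjusted p = 0.873), Pdk2 by -0.21 and Txnip by -0.11, also overlapping. No tested member separated in TPM on D1, where 3.33% of genes separated with KO above and 3.38% with KO below. Leukocyte markers were 2821 to 3992 TPM in KO and 798 to 3390 TPM in WT on that day. Per 1000 TPM of these markers Ucp2 lay lower in KO without overlap, at 80.5 to 88.9 against 97.5 to 116 in WT. The other tested members overlapped on this scale, and no share over all genes was counted on it.

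On D4, Ucp2 separated with KO below WT, at 70.1 to 242 against 249 to 443 TPM. Its log2 difference was -0.97 (SE 0.47, limma adjusted p = 0.222), and 11.2% of genes separated with KO below on D4 and 2.77% with KO above. The median of all genes was -0.28 on D4, and -0.02 with median of ratios, where Ucp2 still separated. The share of all genes that separated with median of ratios was not counted. The lowest library, KO D4 replicate 2, was also the one low in leukocyte markers, and the other KO libraries at 242 and 217 TPM were still below the lowest WT library. Per 1000 TPM of leukocyte markers Ucp2 was 64.7 to 150 in KO and 66.7 to 94.7 in WT.

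The other D4 differences were 0.95 for Ucp3, 0.68 for Pdk2, 0.24 for Txnip and -0.63 for Angptl4, with limma adjusted p from 0.212 to 0.414 and overlapping libraries. Mature myofibre markers were 72885 to 148356 TPM in KO and 45156 to 95661 TPM in WT on D4. On D14 the differences were 0.56 for Pdk4, 0.16 for Ucp3, -0.04 for Pdk2, 0.41 for Ucp2 and 0.33 for Angptl4, each with overlap and a limma adjusted p of 1.

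Txnip changed sides between D7 and D14. On D14 every KO library (252, 212 and 229 TPM) was below every WT library (256, 312 and 299 TPM), a log2 difference of -0.32 (SE 0.16, limma adjusted p = 1), where 1.04% of genes separated with KO below and 7.37% with KO above. The closest libraries were KO replicate 1 at 252 TPM and WT replicate 1 at 256 TPM, and they crossed with median of ratios. The limma F test of differences between days gave Txnip an adjusted p of 0.527, and it called 0% of genes. It called no other member, with 1 member (Txnip) at an unadjusted p under 0.05, beside 1203 of all 15718 genes.

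Members also varied together among libraries of the same group. After subtraction of each group's mean, Pearson's r over the 24 injured libraries was 0.81 between Pdk4 and Ucp3, 0.73 between Pdk2 and Ucp3, 0.55 between Pdk4 and Pdk2, and 0.85 between Ucp2 and Angptl4. Ucp2 and Pdk2 ran against each other (r = -0.80), and Ucp3 and Ucp2, though adjacent in the genome, had r = -0.38. These are descriptions, since the libraries share the scaling of TPM to a fixed total and unequal tissue composition.

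Levels of the cell type markers were set beside the members in the same way. The mean log2 level of leukocyte markers had within-group r of 0.96 with Ucp2, 0.79 with Angptl4 and -0.81 with Pdk2. Mature myofibre markers had r of 0.87 with Pdk2, 0.65 with Ucp3, 0.54 with Txnip and 0.43 with Pdk4. Adipocyte markers had r between -0.34 and 0.20 with the 6 members, although their summed TPM was higher in KO without overlap on D4, at 1009 to 2078 against 535 to 864 TPM, and on D14, at 1522 to 3935 against 1127 to 1239 TPM.

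**Figure D4:**
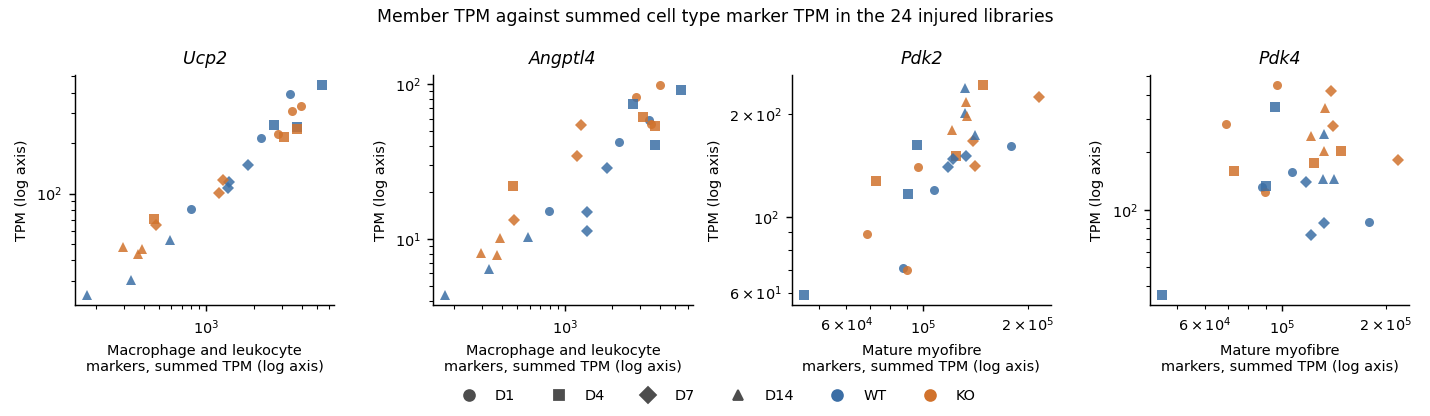
TPM of Ucp2, Angptl4, Pdk2 and Pdk4 (vertical, log axes) against the summed TPM of macrophage and leukocyte or mature myofibre markers (horizontal, log axes) in the 24 injured libraries, with shapes for days and blue for WT, orange for KO. Ucp2 lies close to a line with the leukocyte markers (r = 0.99), while Pdk4 is scattered against the myofibre markers (r = 0.35). These r are between log2 levels and the mean log2 level of the markers, without subtraction of group means.

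The genes most like each member over the 24 libraries, by Pearson's r of log2 levels among 13729 genes, were as follows. For Ucp2 these were Gm2a, Tgfb1 and Ctsz (r from 0.99 to 0.991), lysosomal and secreted proteins abundant in macrophages. For Pdk2 the first was Mfn2, a mitochondrial fusion protein (r = 0.983), and for Ucp3 the first were Tmem52 (0.83) and Scn4b (0.826). Pdk4 had Alpk2 (0.803), Ucp3 (0.755) and Slc25a34 (0.725), so that another member stood second among all genes. Angptl4 had Gpr160, Rhoa and Slc27a4, a fatty acid transport protein (r from 0.937 to 0.942), and Txnip had Gapdh, Ldha and Tmem42 (r from 0.681 to 0.693), the first and second of which encode glycolytic enzymes.

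The other genes of these pathways were counted from lists of 110 genes. In WT D1 against control 28 of the 103 tested (27.2%) were called higher and 26 (25.2%) lower by limma, beside 55.4% and 5.64% of all genes, or 23.1% and 19.4% by median of ratios. Among the pyruvate dehydrogenase complex and its regulators 2 of 12 rose and 4 fell: the kinase Pdk3 rose from 0.833 ± 0.1 to 4.78 ± 2.64 TPM (SD, n = 3) and the phosphatase Pdp1 from 16.7 ± 3.84 to 27.3 ± 4.56 TPM, while the core subunit Dlat fell from 70.8 ± 15.4 to 39.2 ± 5.72 TPM. The kinases thus did not move as 1 group, since Pdk4 and Pdk2 fell in the same libraries.

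Among thioredoxin and glucose uptake genes 7 of 14 rose and 1 fell, close to the shares over all genes. Txn1, the thioredoxin that Txnip binds, rose from 44.8 ± 3.9 to 243 ± 72.5 TPM, the glucose transporter Slc2a1 from 4.54 ± 0.773 to 19.8 ± 7.99 TPM, and hexokinase Hk1 from 6.4 ± 0.691 to 21.4 ± 7.71 TPM. Among uncoupling and related carriers 3 of 7 rose and 2 fell, the adenine nucleotide carrier Slc25a5 rising from 53.8 ± 3.19 to 215 ± 111 TPM.

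Among lipoprotein lipase and angiopoietin-like genes 1 of 7 was called, the lipase cofactor Apoc2 (0.177 ± 0.0757 to 36.3 ± 27.9 TPM). In glycogen metabolism 4 of 18 rose, among them the phosphorylases Pygl (2.43 ± 0.0693 to 8.76 ± 4.4 TPM) and Pygb (4.77 ± 0.734 to 12.9 ± 5.51 TPM). In the same list 5 fell, among them the phosphorylase kinase subunit Phkg1 (318 ± 8.15 to 142 ± 74.2 TPM).

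Of 18 transcription factors of fasting 4 rose and 4 fell. The fatty acid sensor Ppara fell from 7.25 ± 2.65 to 1.34 ± 1.09 TPM, while Cebpd rose from 5.64 ± 0.187 to 22.7 ± 5.66 TPM and Cebpb from 14.1 ± 4.64 to 48.5 ± 10.4 TPM. Of 27 PPAR and fasting targets 7 rose and 10 fell, with a median of -0.48. Those that rose most were the metallothioneins Mt2 (50.2 ± 16.1 to 3233 ± 526 TPM) and Mt1 (70 ± 15.4 to 2344 ± 412 TPM), which bind metals, and the lipid droplet coat protein Plin2 (41 ± 4.19 to 313 ± 207 TPM).

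Between genotypes 0 of 105 tested pathway genes were called by limma on D1, D4, D7 or D14 or on average. At an unadjusted p under 0.05 they numbered 10, 27, 5 and 5 by day and 7 on average. Of all 15718 tested genes, 845, 3568, 481 and 324 were under it by day and 556 on average. In the PPAR and fasting targets 25 of 28 had a higher average in KO, with a median log2 difference of 0.21, beside 27.5% of all genes and a median of -0.07. By median of ratios, tried after the data were seen, the count was 27 of 28 with a median of 0.29, beside 49.0% of all genes. Taken day by day without that rescaling, the count was smallest for D7 (16 of 28, median 0.03) and largest for D14 (25 of 28, median 0.29). The share of all genes higher in KO differed as well, at 20.5% on D7 (median -0.19) and 71.4% on D14 (median 0.08). Mature myofibre markers were higher in KO without overlap on D7, at 138763 to 216178 against 117536 to 132683 TPM in WT. Their mean was also higher in KO on D4, and lower on D14 (129198 against 135080 TPM) and D1 (85132 against 124616 TPM). Adipocyte markers were higher in KO without overlap on D14, at 1522 to 3935 against 1127 to 1239 TPM, and on D4. The part of either cell type in these values was not tested. Among these targets the largest average was that of the droplet protein Plin5 (0.65, SE 0.29). The mTOR inhibitor Ddit4 (0.45, SE 0.22) and the thioesterase Acot1 (0.44, SE 0.19) followed, all with a limma adjusted p of 0.861. In the lipoprotein lipase list 4 of 7 were higher, led by the fatty acid transporter Cd36 (0.38, SE 0.13, limma adjusted p = 0.861), and in the glycogen list 13 of 19, led by Ppp1r3c, which brings a phosphatase to glycogen (0.45, SE 0.26).

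Among transcription factors of fasting 11 of 18 were higher in KO by average, Cebpb by 0.38 (SE 0.17), Cebpd by 0.37 (SE 0.14) and Klf15, a glucocorticoid-induced factor, by 0.33 (SE 0.21), none called. Of the pyruvate dehydrogenase list 10 of 12 were higher, with a median of 0.07, and Pdk3 was lower (-0.28, SE 0.22). Of thioredoxin and glucose uptake genes 9 of 14 were higher, with a median of 0.01, the arrestin Arrdc2, a relative of Txnip, differing by 0.49 (SE 0.29). Of uncoupling and related carriers 4 of 7 were higher, and none differed by more than 0.18 in size. Of all tested genes 27.5% were higher by average, with a median of -0.07. By median of ratios the lists held 16 of 18, 11 of 12, 10 of 14 and 5 of 7 in the same order, beside 49.0% of all genes.

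Of 105 pathway genes, 13 (12.4%) rose and 16 (15.2%) fell from D1 to D4 in WT, beside 14.6% and 5.27% of all genes (13.1% and 10.6% by median of ratios). In KO 9 (8.57%) rose and 16 (15.2%) fell, beside 7.18% and 12.2% of all genes (12.5% and 13.5% by median of ratios). Dlat rose in both genotypes, from 39.2 ± 5.71 to 68.5 ± 15.9 TPM in WT and from 43.3 ± 5.92 to 76.8 ± 7.26 TPM in KO, and so did Ppargc1b, a coactivator of oxidative genes, from 2.75 ± 0.0289 to 5.93 ± 1.35 TPM in WT and from 2.74 ± 0.34 to 5.46 ± 0.78 TPM in KO. Hk2 fell from 115 ± 6.31 to 36.4 ± 15.7 TPM in WT. Sequencing batch may coincide with the WT step from D1 to D4.

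From D4 to D7, 12 (11.4%) rose and 8 (7.62%) fell in WT, beside 3.04% and 9.31% of all genes (6.18% and 5.42% by median of ratios). In KO 0 were called by limma, with 7 at an unadjusted p under 0.05, beside 1555 of all 15718 genes. The pyruvate carrier subunits Mpc1 (214 ± 57.6 to 400 ± 75.2 TPM) and Mpc2 (113 ± 36.2 to 199 ± 22.5 TPM) rose in WT, as did Gpihbp1, which anchors lipoprotein lipase on capillaries (53.4 ± 10.9 to 114 ± 12.3 TPM). From D7 to D14, 2 (1.90%) rose and 14 (13.3%) fell in WT, beside 0.923% and 30.9% of all genes (4.45% and 10.3% by median of ratios). Those that fell included Pdk3 (5.31 ± 1.53 to 1.43 ± 0.716 TPM). In KO 0 of 105 were called, with 25 at an unadjusted p under 0.05 in the limma fit, beside 3035 of all 15718 genes.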

How the data were processed

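RNA-seq of mouse muscle was analysed as deposited. The authors deposited TPM per gene in 2 tables, one of the 24 injured libraries and one that sets WT D1 beside control. Their processing notes name mm10, and the aligner, counter, annotation and strand setting are not given in the sources used here. The same 3 WT D1 libraries stand in both tables, quantified separately (members differed by at most 6.92%), and control was tested only within its own table. TPM keeps no read number, so depth is unknown and no counting interval was formed. Members and pathway lists were chosen with earlier results of these data known. Genes with at least 1 TPM in at least 3 libraries were tested as log2(TPM + 1), 15718 in the injured and 13041 in the control table, with limma 3.58.1 (R 4.3.3), group means, contrasts and a variance trend, and Benjamini-Hochberg adjustment over all genes. Called means an adjusted p under 0.05. Differences on this scale understate changes of low genes. Single values were tested by exact two-sided permutation. The fit was tested on simulated data. The labels say nothing of separate animals, so p-values measure the spread between libraries. Gene positions are from GENCODE M21 (GRCm38) and promoters from RefSeq. Named pathway genes are those with the largest called differences, up to 3 per list and comparison, and up to 3 per list with the largest averaged difference between genotypes, of which a part is printed; Gys1 was added after its values were seen. Other scalings, filters, weights, a replicate block and leaving out each library were tried. Some of the genes most like Pdk2 and Ucp3 are not reported here.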

Additional observations from a re-analysis of the deposited data

Results flagged for a closer look

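Txnip differed between genotypes in opposite directions on D7 and D14, on both days without overlap of the libraries. Every KO library was above every WT library on D7, with a log2 difference of 0.47. On D14 every KO library was below every WT library, with a log2 difference of -0.32. Among all tested genes, 1.85% separated with KO above on D7 and 1.04% with KO below on D14, and the limma adjusted p of Txnip was 0.776 and 1. Per 1000 TPM of mature myofibre markers the genotypes overlapped on both days, at 1.51 to 2.68 in KO and 1.89 to 2.12 in WT on D7, and 1.59 to 2.08 in KO and 1.93 to 2.27 in WT on D14. The limma F test over all days gave an adjusted p of 0.527, and the contrast of D14 with D7 alone was not tested. The D14 separation was lost with median of ratios, where it held for 0 members.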

How the results depend on the processing

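TPM tables carry no read numbers, so precision rests on 3 libraries per group, and values of low genes such as Gys2 cannot be given an error from depth. Of 915 values of members under alternatives, 865 kept their direction and their side of the threshold, 20 changed sign, 16 gained a call and 14 lost one, and the causes were not tested. Library quality weights gave the most calls: 4 members for KO against WT on D7, 5 for WT D7 against D4, 5 for WT D14 against D7 and 4 for KO D14 against D7. In the same order these weights called 533, 10595, 9503 and 7861 of all 15718 tested genes. With no filter, and so more genes tested, 0 members were called for WT D7 against D4, beside 1514 of 33258 genes. For KO against WT on D1, Ucp3 changed sign with median of ratios (-0.052), quantile normalization (-0.034) and the most abundant genes removed (-0.022). With quality weights the sign turned for Angptl4 on D4 (0.22), Pdk2 on D7 (-0.012), averaged Pdk2 (-0.010) and averaged Ucp2 (0.19). Among the counts of members without overlap, an alternative added after the data were seen, 1 lay with KO above on D1 when abundant genes were removed and 0 with KO below on D14 with median of ratios. The shares over all genes were not counted under these scalings. Leaving out 1 library at a time, with no share over all genes counted, gave 0 to 1 called members for WT D7 against D4, WT D14 against D7, KO D4 against D1 and KO D14 against D7. The same ranges for KO minus WT on D1 were -0.53 to 0.052 for Pdk2, -0.020 to 1.11 for Ucp2, -0.33 to 0.46 for Ucp3 and -0.24 to 0.038 for Txnip. Pdk4 on D4 ranged from -0.26 (without WT D4 replicate 1) to 1.36, Pdk2 on D14 from -0.15 to 0.078, averaged Ucp2 from -0.25 to 0.048, and Angptl4 for KO D7 against D4 from -0.94 to 0.058. Same-numbered WT and KO libraries of a day had correlations of their deviations from -0.40 to 0.39. Whether replicate numbers pair control with WT D1 libraries was not checked in this way. A replicate block called 0 members between genotypes on every day, 1 for WT D7 against D4, 1 for WT D14 against D7 and 5 for WT D1 against control, the same counts as without it. With the block 1913 and 5024 of 15718 genes were called for these WT steps, and 6952 of 13041 for WT D1 against control. Between genotypes it called at most 1 gene on a day.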
